A study of Mus musculus with 24 samples.

Results

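Birth moves the mouse eye from the uterus to air breathing, feeding and a cooler body surface within hours, and the lens fiber cells of CD1 mice were compared across that step. Fiber cells are the long, crystallin-filled cells that form the bulk of the lens, and they differentiate from the single layer of epithelium on its front face. The comparison set 3 fiber libraries from mice at P0.5, 0.5 days after birth, against 3 fiber libraries from embryos at embryonic stage E18.5, shortly before birth. These are 6 of the 24 libraries of the series, and every gene of the deposited table was included: 12611 genes, of which 12427 had enough counts to be tested and 184 did not.

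All mice were of CD1, an outbred albino stock, and the labels give no treatment, transgene or engineered allele for any group. The other libraries are fiber at E14.5 and E16.5 and epithelium at all 4 stages, with 3 replicates in each of the 8 groups. Tissues were separated by microdissection, and total RNA was sequenced with a stranded kit after ribosomal RNA depletion. No source used here says whether counting respected strand, and genes that overlap in antisense cannot be told apart by these counts. Whether a replicate pools lenses or litters is not stated in the labels, so p-values measure the spread between these libraries.

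Several programs are known to respond to conditions that birth alters. Hypoxia-inducible factors (HIF) are transcription factors that accumulate when oxygen is low, and they raise glucose uptake, glycolysis and their own feedback inhibitors. The embryonic lens has a transient blood vessel net, and it has none as an adult. SREBP2, encoded by Srebf2, switches on cholesterol synthesis and uptake when membrane sterol is low, and fiber cells need much sterol for their membranes. Cirbp and Rbm3 encode RNA-binding proteins that mild cold induces in mammalian cells. Lens fibers also erase their nuclei and organelles as they mature, and crystallins come to fill the cytoplasm. P0.5 and E18.5 differ in age as well, so birth and age cannot be told apart in this design.

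The total count was 13861871 to 21617737 in P0.5 fiber libraries and 17012093 to 21116574 in E18.5 fiber libraries. Crystallin genes took 43.9%, 42.9% and 42.8% of all counts in the P0.5 replicates 1 to 3, against 34.7%, 29.6% and 37.3% in the E18.5 replicates 1 to 3. Rn45s, the ribosomal RNA precursor, took 4.02% to 4.93% at P0.5 and 6.55% to 28.9% at E18.5, with the highest share in E18.5 replicate 2. Both shares are of the same total, so a high Rn45s share lowers that of crystallins. P0.5 replicate 3 lay farthest from the other members of its group of all 24 libraries, with an SD of 0.266 in log2 per gene. Each of these libraries stands apart in 1 measure. E18.5 replicate 2 does so by its Rn45s share alone, since its SD of 0.204 was below the 0.227 of E18.5 replicate 1. All 11 fiber-defining markers averaged above 1 CPM at both stages, from Cryaa at 225123 ± 5296 CPM at P0.5 to Lgsn at 21.4 ± 10.7 CPM (mean ± SD, n = 3). Foxe3, which marks the epithelium, averaged 7.36 ± 1.24 CPM in P0.5 fiber and 129 ± 15.3 CPM in P0.5 epithelium. CPM are the usual depth-scaled counts, here over the library size after TMM scaling, a step that takes the bulk of genes as unaltered, and errors of CPM are SD throughout.

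Across birth 355 genes rose in fiber (2.86% of the 12427 tested) and 416 fell (3.35%) at an adjusted p under 0.05 in edgeR's quasi-likelihood test. The changes were small, with a median size of 0.41 on the log2 scale among these genes. A change of at least 2-fold was reached by 37 genes that rose (0.298%) and 30 that fell (0.241%). The median change over all genes was 0.01. Without E18.5 replicate 2 and P0.5 replicate 3, the libraries that stand apart, 225 genes rose and 354 fell. Without E18.5 replicate 2 alone 234 rose and 324 fell. Leaving out E18.5 replicate 3 lowered the counts to 143 and 206, leaving out P0.5 replicate 1 to 163 and 206, and leaving out E18.5 replicate 1 to 219 and 237, or P0.5 replicate 2 to 210 and 237. Of the called genes 46.0% rose, and when libraries were scaled by their total count alone 109 genes rose and 63 fell, so that 63.4% of calls were rises. The step before birth, E18.5 against E16.5 fiber, had 1605 genes that rose (12.9%) and 1142 that fell (9.19%); it shares the 3 E18.5 libraries with the birth comparison. Values for P0.5 fiber lay wholly above those for E18.5 fiber for 12.8% of genes and wholly below for 11.9%. The plot of change against level shows that the called genes spread over a wide range of levels.

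**Figure D1:**
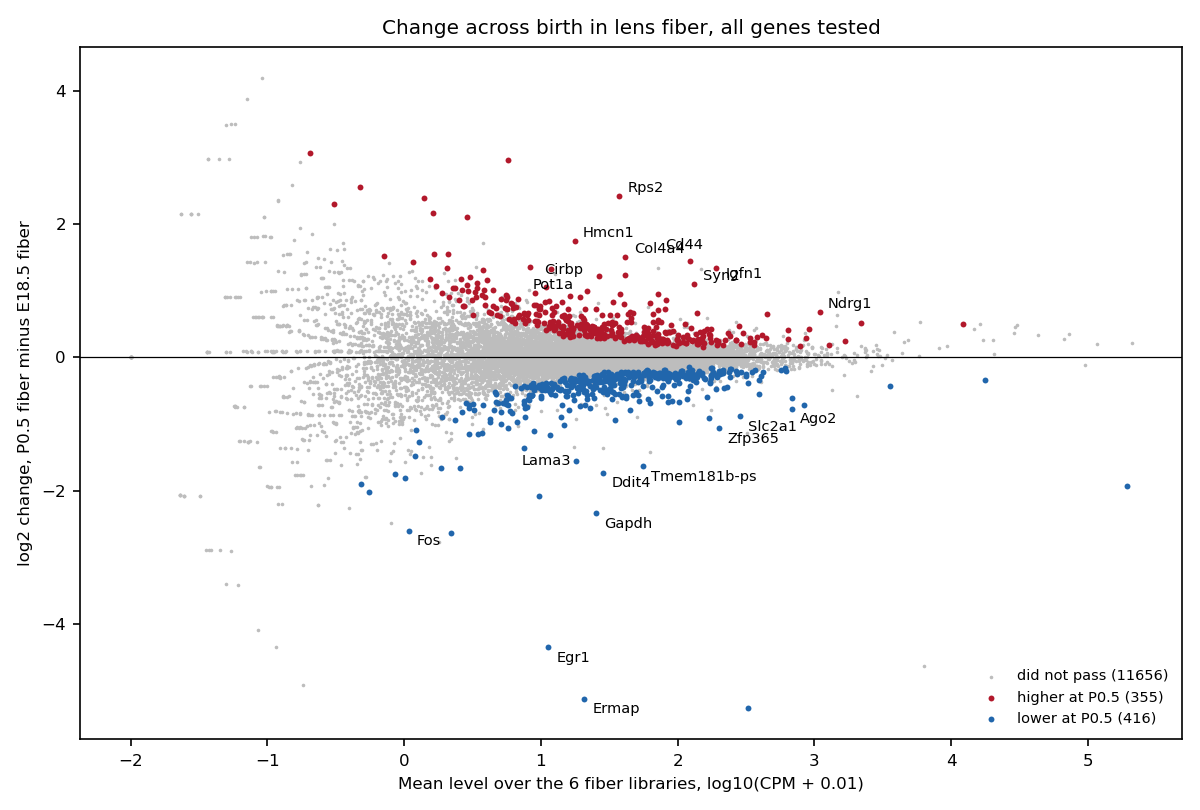
Log2 change of each of the 12427 genes tested, P0.5 fiber minus E18.5 fiber, against its mean level in log10(CPM + 0.01) over the 6 libraries. Red points are the 355 genes that rose and blue points the 416 that fell; the changes beyond 2 in log2 are mostly of genes at low or middle level, and the blue point farthest right is Rn45s.

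Cd44, Igfn1 and Ppl were among the 15 largest rises. Cd44, the receptor for hyaluronan, had 152, 160.0 and 227 CPM in P0.5 libraries, against 79.2, 45.2 and 71.8 CPM in E18.5 libraries. Every P0.5 library was above every E18.5 library, a 2.72-fold rise (log2 1.44 ± 0.23, SE, adjusted p = 0.000709, edgeR). The gene had also risen from E16.5 to E18.5, with means of 3.25 CPM at E14.5, 11.2 CPM at E16.5, 65.4 CPM at E18.5 and 179.5 CPM at P0.5. Igfn1, an immunoglobulin and fibronectin domain protein, had 199, 262 and 354 CPM at P0.5, against 154, 87.9 and 78.96 CPM at E18.5 (log2 1.34 ± 0.25, adjusted p = 0.00326). Ppl, which encodes periplakin, a linker of intermediate filaments to the membrane, had 102, 82.4 and 135 CPM at P0.5, against 48.1, 66.9 and 61.1 CPM at E18.5 (log2 0.86 ± 0.17, adjusted p = 0.00417). In both genes the groups did not overlap, although the P0.5 values of Igfn1 were widely spread.

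Syn2, which encodes synapsin 2, a protein of synaptic vesicles in neurons, rose as well. Its P0.5 libraries had 198, 157 and 186 CPM, against 83.1, 82.6 and 86.9 CPM in E18.5 libraries (log2 1.10 ± 0.10, adjusted p = 1.43e-06, edgeR). The groups lay far apart. Syn2 overlaps Timp4 and Gm18325 on the other strand and Gm17482 on the same strand, and reads of overlapping genes cannot be told apart here. Syn2 had fallen between E16.5 and E18.5, and its means were 163 CPM at E14.5, 137 CPM at E16.5, 84.2 CPM at E18.5 and 180.4 CPM at P0.5. Pot1a, which protects telomere ends, had also fallen before birth and then rose: it had 29.8, 29.8 and 27.5 CPM at P0.5, against 16.49, 13.4 and 13.7 CPM at E18.5 (log2 0.99 ± 0.11, adjusted p = 1.39e-05), and its log2 change from E16.5 to E18.5 was -0.64. Poln, a DNA polymerase gene that overlaps Haus3 on the same strand, had 47.9, 39.4 and 41.04 CPM at P0.5, against 21.9, 26.3 and 23.8 CPM at E18.5 (log2 0.83 ± 0.16, adjusted p = 0.003601). Its log2 change from E16.5 to E18.5 was -1.03. Gadd45g, a growth arrest gene, had 45.96, 35.1 and 68.3 CPM at P0.5, against 34.3, 18.9 and 22.7 CPM at E18.5, values that nearly touch (log2 0.95 ± 0.20, adjusted p = 0.00656).

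Of the 15 named rises 11 passed when any single fiber library was left out, and 4 did not. Hmcn1, which encodes the matrix protein hemicentin 1, had 14.1, 12.9 and 54.6 CPM at P0.5, against 7.68, 8.38 and 8.22 CPM at E18.5, so that P0.5 replicate 3 made most of its rise (log2 1.74 ± 0.39, adjusted p = 0.0107, edgeR; log2 0.73, adjusted p = 0.0804, without that library). Rps2, a ribosomal protein gene with near-identical copies elsewhere in the genome, so that its counts are uncertain, had 58.7, 86.7 and 43.6 CPM at P0.5, against 27.8, 3.46 and 2.996 CPM at E18.5 (log2 2.42 ± 0.54, adjusted p = 0.00995). E18.5 replicate 1 was high and its partners were near 3. Without E18.5 replicate 3 its log2 change was 1.91, adjusted p = 0.0597, and without E18.5 replicate 1 it was 4.32, adjusted p = 0.000187. Ttc39aos1, an antisense transcript, had 16.46, 18.4 and 29.5 CPM at P0.5, against 10.9, 12.5 and 10.7 CPM at E18.5 (log2 0.93 ± 0.21, adjusted p = 0.00995). Its log2 change was 0.63, adjusted p = 0.05795, without P0.5 replicate 3 and 0.88, adjusted p = 0.0514, without E18.5 replicate 3. Col4a4 is described with the basement membrane.

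Among the falls, Zfp365, a zinc finger gene, had 116, 117 and 154 CPM at P0.5, against 229.6, 283 and 294 CPM at E18.5 (log2 -1.06 ± 0.13, adjusted p = 2.03e-05, edgeR). Ago2, which encodes the slicing Argonaute of small RNA pathways and overlaps Chrac1 on the other strand, had 487, 462 and 561 CPM at P0.5, against 903, 874 and 797 CPM at E18.5 (log2 -0.77 ± 0.07, adjusted p = 4.33e-07). Groups were well separated in both genes. The 2 genes differ in their earlier course: Ago2 had means of 172 CPM at E14.5, 226 CPM at E16.5, 858 CPM at E18.5 and 503 CPM at P0.5, whereas Zfp365 had 257 CPM at E14.5, 225 CPM at E16.5, 269 CPM at E18.5 and 129 CPM at P0.5. Tmem181b-ps, a transcribed pseudogene whose reads may be shared with its parent genes, had 32.9, 21.1 and 28.1 CPM at P0.5, against 79.6, 78.9 and 92.5 CPM at E18.5 (log2 -1.64 ± 0.16, adjusted p = 2.19e-06). Anxa5, a phosphatidylserine-binding annexin, had 18.2, 17.3 and 15.01 CPM at P0.5, against 26.5, 31.5 and 27.7 CPM at E18.5 (log2 -0.76 ± 0.12, adjusted p = 0.000809). Ccdc117 had 53.2, 59.5 and 93.5 CPM at P0.5, against 138, 146 and 122 CPM at E18.5 (log2 -0.97 ± 0.15, adjusted p = 0.000517). P0.5 replicate 3 was the highest of its group for Ccdc117 and still below every E18.5 library.

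Of the 15 named falls 12 passed without any single library, and Ermap and Foxn2 were among those that did not. Ermap, an erythroblast membrane protein gene, had 1.27, 1.197 and 0.945 CPM at P0.5, against 1.55, 60.4 and 58.6 CPM at E18.5, where replicate 1 was as low as the P0.5 libraries (log2 -5.12 ± 1.32, adjusted p = 0.0229, edgeR). Of the 6 fits without 1 library it passed only in that without E18.5 replicate 1; without the others in turn adjusted p was 0.0573 (E18.5 replicate 2), 0.0821 (E18.5 replicate 3), 0.0759 (P0.5 replicate 1), 0.0835 (P0.5 replicate 2) and 0.0567 (P0.5 replicate 3). Foxn2, a forkhead factor, had 9.88, 8.698 and 16.8 CPM at P0.5, against 22.2, 18.7 and 19.2 CPM at E18.5 (log2 -0.78 ± 0.16, adjusted p = 0.00668). Without P0.5 replicate 2 its log2 change was -0.57, adjusted p = 0.0512.

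Slc2a1, Ddit4, P4ha1 and other genes of the hypoxia response and glycolysis fell across birth. Of 38 tested members 10 fell (26.3%, against 3.35% of all genes) and 2 rose (5.26%, against 2.86%). The list's median log2 change was -0.28, against 0.01 over all genes, and 32 members were below 0. When each fiber library was left out in turn, 8 of the 10 falls and 1 of the 2 rises passed every time. Scaling by total count alone left 5 falls, and leaving out both libraries that stand apart left 7.

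Promoters of 3 members that fell are shown because each holds ACGTG, the core sequence that HIF binds. The windows run from 250 bases before to 50 bases after the RefSeq start (GRCm38.p6), 5′ to 3′ on the gene's strand, and capitals mark ACGTG or, where it lies on the other strand, CACGT. Slc2a1 is at chr4:119108495-119108794 (plus strand), P4ha1 at chr10:59323046-59323345 (plus strand) and Ddit4 at chr10:59951721-59952020 (minus strand).
Slc2a1: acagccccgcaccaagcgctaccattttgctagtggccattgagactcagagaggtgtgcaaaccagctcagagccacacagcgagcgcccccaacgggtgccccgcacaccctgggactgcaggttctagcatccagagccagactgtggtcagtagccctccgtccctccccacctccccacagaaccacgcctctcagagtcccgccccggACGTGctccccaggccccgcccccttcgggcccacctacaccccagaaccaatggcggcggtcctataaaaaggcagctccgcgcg
P4ha1: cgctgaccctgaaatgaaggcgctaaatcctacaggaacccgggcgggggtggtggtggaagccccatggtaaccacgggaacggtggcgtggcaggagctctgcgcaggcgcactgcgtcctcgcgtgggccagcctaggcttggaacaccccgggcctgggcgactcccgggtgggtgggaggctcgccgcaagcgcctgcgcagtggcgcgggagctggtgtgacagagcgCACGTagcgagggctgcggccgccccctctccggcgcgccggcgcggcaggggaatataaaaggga
Ddit4: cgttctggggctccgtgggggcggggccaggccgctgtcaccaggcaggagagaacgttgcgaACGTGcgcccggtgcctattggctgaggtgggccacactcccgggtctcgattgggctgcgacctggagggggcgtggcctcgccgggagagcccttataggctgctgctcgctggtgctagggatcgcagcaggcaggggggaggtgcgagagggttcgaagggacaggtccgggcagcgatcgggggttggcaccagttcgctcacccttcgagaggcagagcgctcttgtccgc
Both strands were searched, and the match began 36 bases before the start in Slc2a1, 16 in P4ha1 and 187 in Ddit4. Of the 34 list members with a window 25 held ACGTG (73.5%), against 19.6% of all 32851 windows and 29.8% of the 9558 tested genes with a window. The sequence was found in 8 of the 9 members that fell and have a window, and in 16 of 24 members that did not pass (66.7%). A match is a description of these letters, not of a bound site.

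Glucose entry and glycolysis came first. Slc2a1 encodes GLUT1, a glucose transporter, and had 212, 214 and 173 CPM in P0.5 libraries, against 388, 336 and 382 CPM in E18.5 libraries. All 3 P0.5 libraries were below all 3 E18.5 libraries. The level was 1.85-fold lower at P0.5 (log2 -0.89 ± 0.09, adjusted p = 2.19e-06, edgeR). Pfkfb3, which makes an activator of glycolysis, had 73.1, 74.3 and 93.4 CPM at P0.5, against 101, 111 and 109 CPM at E18.5 (log2 -0.41 ± 0.08, adjusted p = 0.00516). Gapdh, a glycolytic enzyme gene with many near-identical pseudogenes that make its counts uncertain and an overlap with Iffo1 on the other strand, had 10.5, 6.38 and 8.82 CPM at P0.5, against 41.6, 28.5 and 54.8 CPM at E18.5 (log2 -2.34 ± 0.26, adjusted p = 9.43e-06). Hk2 and Pgk1, enzymes of the first and a later step, also fell, by 0.24 and 0.46 on the log2 scale (adjusted p = 0.0372 and 0.0286). These 2 calls were near the threshold: Hk2 passed only without E18.5 replicate 2 or without P0.5 replicate 3, Pgk1 only without P0.5 replicate 1, and adjusted p reached 0.149 for Hk2 and 0.0885 for Pgk1 over the fits without each of the others.

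Feedback and stress members fell too. Ddit4 encodes REDD1, an inhibitor of the growth kinase mTORC1 that low oxygen and glucocorticoids induce, and had 10.1, 10.8 and 19.2 CPM at P0.5, against 43.6, 33.5 and 54.4 CPM at E18.5. Its groups were far apart, a 3.32-fold lower level at P0.5 (log2 -1.73 ± 0.20, adjusted p = 1.59e-05, edgeR). P4ha1, which hydroxylates collagen prolines, had 733, 727 and 451 CPM at P0.5, against 1031, 1070.2 and 1030.3 CPM at E18.5 (log2 -0.71 ± 0.11, adjusted p = 0.000544), with replicate 3 the lowest P0.5 library. Hif3a, which encodes a HIF subunit that restrains the others, had 43.3, 44.6 and 34.01 CPM at P0.5, against 52.3, 70.2 and 69.97 CPM at E18.5 (log2 -0.65 ± 0.14, adjusted p = 0.00809). Mxi1 and Ero1l, a MYC antagonist and an endoplasmic reticulum oxidase, fell by 0.45 and 0.43 on the log2 scale (adjusted p = 0.00397 and 0.00607).

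The list did not move as one. Ndrg1, a stress gene that is abundant in fiber, rose: it had 1288, 1198 and 1532 CPM at P0.5, against 768, 887 and 856 CPM at E18.5 (log2 0.68 ± 0.12, adjusted p = 0.00209, edgeR). Pfkm, the muscle form of phosphofructokinase, had 12.8, 13.96 and 16.8 CPM at P0.5, against 10.96, 10.9 and 8.295 CPM at E18.5 (log2 0.55 ± 0.12, adjusted p = 0.00995), and its log2 change was 0.41, adjusted p = 0.0807, without E18.5 replicate 3. Members of the list that did not pass include Vegfa, the vessel growth factor (log2 -0.27 ± 0.10, adjusted p = 0.122), Bnip3, a mitophagy receptor (log2 -0.12 ± 0.12, adjusted p = 0.6299), and Egln3, an oxygen sensor (log2 -0.03 ± 0.28, adjusted p = 0.9701). Ldha, lactate dehydrogenase A, had 174, 166 and 45.6 CPM at P0.5, against 239.6, 219 and 209.8 CPM at E18.5. Its groups did not overlap, but P0.5 replicate 3 was far below its partners and the change did not pass (log2 -0.79 ± 0.26, adjusted p = 0.07205). Hif1a itself, whose protein rather than RNA is set by oxygen, had a log2 change of -0.08 ± 0.08 (adjusted p = 0.631).

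The stages before birth set these falls in context, with the E18.5 libraries shared between the steps. From E16.5 to E18.5 the list's median log2 change was 0.70, and 26 of the 38 members rose (against 12.9% of all genes) while 0 fell; also 0 fell at an unadjusted p under 0.05, and DESeq2 was not run on that step. P4ha1 had means of 581 CPM at E14.5, 593 CPM at E16.5, 1044 CPM at E18.5 and 637 CPM at P0.5. Hif3a had 9.47 CPM at E14.5, 21.2 CPM at E16.5, 64.2 CPM at E18.5 and 40.6 CPM at P0.5. For P4ha1 the P0.5 mean was close to the E16.5 mean, and for Hif3a it lay above it. Slc2a1 took another course, since its means of 326 CPM at E14.5, 308 CPM at E16.5, 369 CPM at E18.5 and 199.6 CPM at P0.5 put P0.5 below every earlier stage. Ddit4 at P0.5 was likewise below all of them, with 29.1 CPM at E14.5, 32.1 CPM at E16.5, 43.8 CPM at E18.5 and 13.4 CPM at P0.5.

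**Figure D2:**
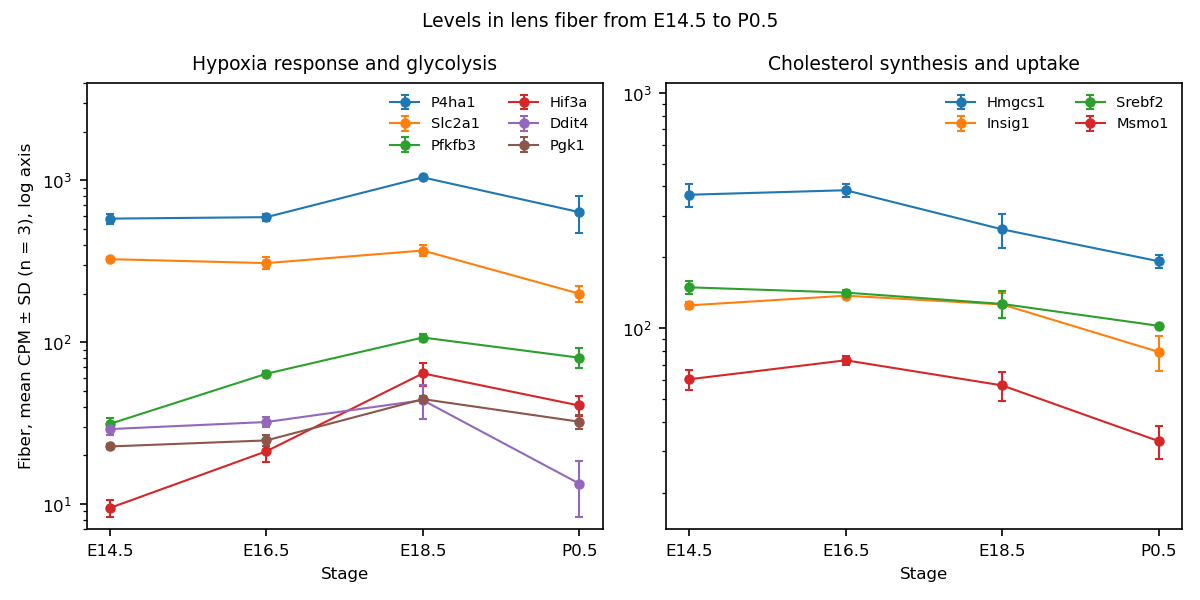
Mean CPM ± SD (n = 3, log axis) in lens fiber at the 4 stages for 6 hypoxia and glycolysis genes (left) and 4 cholesterol genes (right). P4ha1, Pfkfb3, Hif3a, Pgk1, Slc2a1 and Ddit4 all peak at E18.5, and Slc2a1 and Ddit4 are lowest at P0.5. Hmgcs1 and Msmo1 are highest at E16.5 and lowest at P0.5.

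Msmo1, Insig1, Hmgcs1, Srebf2 and other genes of cholesterol synthesis and uptake fell across birth. Of 22 tested members 6 fell (27.3%, against 3.35% of all genes) and 0 rose (against 2.86%), also in DESeq2 and at an unadjusted p under 0.05. The median log2 change was -0.31, or -0.20 without E18.5 replicate 1, and 21 of the 22 members were below 0. The calls were few and near the threshold: 2 of the 6, Msmo1 among them, passed without any single library, and the number that fell ranged from 3 without P0.5 replicate 1 or 2 to 8 without E18.5 replicate 2. It was 4 without E18.5 replicate 1 or with scaling by total count, and 8 without both libraries that stand apart.

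Promoters of 3 of these genes are shown because all of them hold CCAAT, the box bound by NF-Y, a known partner of SREBP2, and 1 holds TCACNCCAC, a sterol element. Capitals mark these letters on either strand, in windows of the same extent and build as above; TCACNCCAC and CCAAT did not overlap. Insig1 is at chr5:28071162-28071461 (plus strand), Msmo1 at chr8:64733529-64733828 (minus strand) and Hmgcs1 at chr13:119690101-119690400 (plus strand).
Insig1: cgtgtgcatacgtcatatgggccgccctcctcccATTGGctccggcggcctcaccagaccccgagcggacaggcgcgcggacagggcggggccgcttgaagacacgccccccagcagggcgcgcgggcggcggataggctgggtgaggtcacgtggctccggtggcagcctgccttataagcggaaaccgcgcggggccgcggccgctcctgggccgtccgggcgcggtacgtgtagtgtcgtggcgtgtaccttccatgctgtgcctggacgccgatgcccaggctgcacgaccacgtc
Msmo1: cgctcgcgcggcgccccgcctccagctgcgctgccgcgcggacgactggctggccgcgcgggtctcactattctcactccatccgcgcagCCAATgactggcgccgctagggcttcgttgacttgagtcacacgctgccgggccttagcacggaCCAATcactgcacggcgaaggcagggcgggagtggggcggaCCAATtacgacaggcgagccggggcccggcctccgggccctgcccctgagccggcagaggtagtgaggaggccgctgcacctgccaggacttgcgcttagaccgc
Hmgcs1: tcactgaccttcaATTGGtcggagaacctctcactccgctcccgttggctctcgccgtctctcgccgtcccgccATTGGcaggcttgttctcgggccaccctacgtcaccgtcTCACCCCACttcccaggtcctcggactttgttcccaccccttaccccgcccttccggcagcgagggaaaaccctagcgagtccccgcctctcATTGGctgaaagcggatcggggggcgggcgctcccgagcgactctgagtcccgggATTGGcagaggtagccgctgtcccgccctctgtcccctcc
CCAAT lay in all 15 list members with a window, the 4 that fell and the 11 that did not pass, against 37.4% of all windows and 43.2% of tested genes. Hmgcs1 alone of the 15 held TCACNCCAC, which lay in 1.2% of all windows.

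Among the regulators, Insig1, which holds the SREBP complex in the endoplasmic reticulum and is itself an SREBP target, had 70.1, 72.8 and 94.9 CPM at P0.5, against 141, 110.1 and 127 CPM at E18.5 (log2 -0.67 ± 0.15, adjusted p = 0.00963, edgeR). The highest P0.5 library, replicate 3, was below the lowest E18.5 library. The call was lost without P0.5 replicate 1 (log2 -0.60, adjusted p = 0.0522). Srebf2 had 103, 101 and 103 CPM at P0.5, against 146, 116 and 118 CPM at E18.5 (log2 -0.31 ± 0.09, adjusted p = 0.03196), with E18.5 replicate 1 above its partners. Without that library its log2 change was -0.20, adjusted p = 0.195, and the call was also lost without P0.5 replicate 1, 2 or 3 (adjusted p = 0.0844, 0.0898 and 0.0546).

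Among the enzymes, Msmo1, a sterol demethylating oxidase, had 29.5, 30.7 and 39.2 CPM at P0.5, against 66.5, 50.8 and 54.00 CPM at E18.5 (log2 -0.79 ± 0.16, adjusted p = 0.00516, edgeR). The groups were separate. Hmgcs1, an early enzyme of the pathway, had 183, 188 and 206 CPM at P0.5, against 313, 239 and 236 CPM at E18.5 (log2 -0.45 ± 0.13, adjusted p = 0.0342). Its call was lost without E18.5 replicate 1 (adjusted p = 0.191), P0.5 replicate 1 (0.1202) or P0.5 replicate 2 (0.0971). Sqle, a later enzyme, had 101, 95.6 and 113 CPM at P0.5, against 143, 109 and 120.1 CPM at E18.5, values that overlap (log2 -0.27 ± 0.11, adjusted p = 0.1498). The decline had begun before birth for Hmgcs1, whose log2 change from E16.5 to E18.5 was -0.55 (adjusted p = 0.002396, with the E18.5 libraries shared). In that step 4 of the 22 members fell, against 9.19% of all genes, and the list's median was -0.15. It had 0 rises, against 12.9% of all genes, and also 0 at an unadjusted p under 0.05.

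Fatty acid synthesis and elongation genes had 6 falls among 18 tested members (33.3%, against 3.35% of all genes) and 0 rises, with a median of -0.23, or -0.13 without E18.5 replicate 1 and -0.36 without both libraries that stand apart; 0 rose in DESeq2 and 1 at an unadjusted p under 0.05. Those that fell were Acss2 (-0.76 ± 0.21), Fads2 (-0.47 ± 0.11), Elovl5 (-0.39 ± 0.10), Elovl1 (-0.33 ± 0.10), Elovl6 (-0.32 ± 0.09) and Acly (-0.28 ± 0.08), as log2 changes with SE. Elovl genes lengthen fatty acids, Fads2 desaturates them, and Acly and Acss2 supply acetyl-CoA. Each of the 6 calls was lost without some single library, and 1 fall was left without E18.5 replicate 1, E18.5 replicate 3, P0.5 replicate 1 or P0.5 replicate 2. Fads2 was lost without P0.5 replicate 1 or E18.5 replicate 1 (adjusted p up to 0.0878) and Elovl5 without P0.5 replicate 1 or 2 or E18.5 replicate 3 (up to 0.178). Acss2, Acly and Elovl6 were lost without P0.5 replicate 1 or 2 or E18.5 replicate 1 or 3 (up to 0.189, 0.187 and 0.187), and Elovl1 without P0.5 replicate 2 or 3 or E18.5 replicate 1, 2 or 3 (up to 0.177). Scaling by total count left 0 of them called, with the median at -0.20. Fasn, the synthase itself, had 273, 266 and 366 CPM at P0.5, against 361, 297 and 328 CPM at E18.5, which overlap (log2 -0.13 ± 0.10, adjusted p = 0.476). From E16.5 to E18.5, with the E18.5 libraries shared, 7 of the 18 members had already fallen, against 9.19% of all genes. In that step 1 member had risen, against 12.9%, and the list's median was -0.18.

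**Figure D3:**
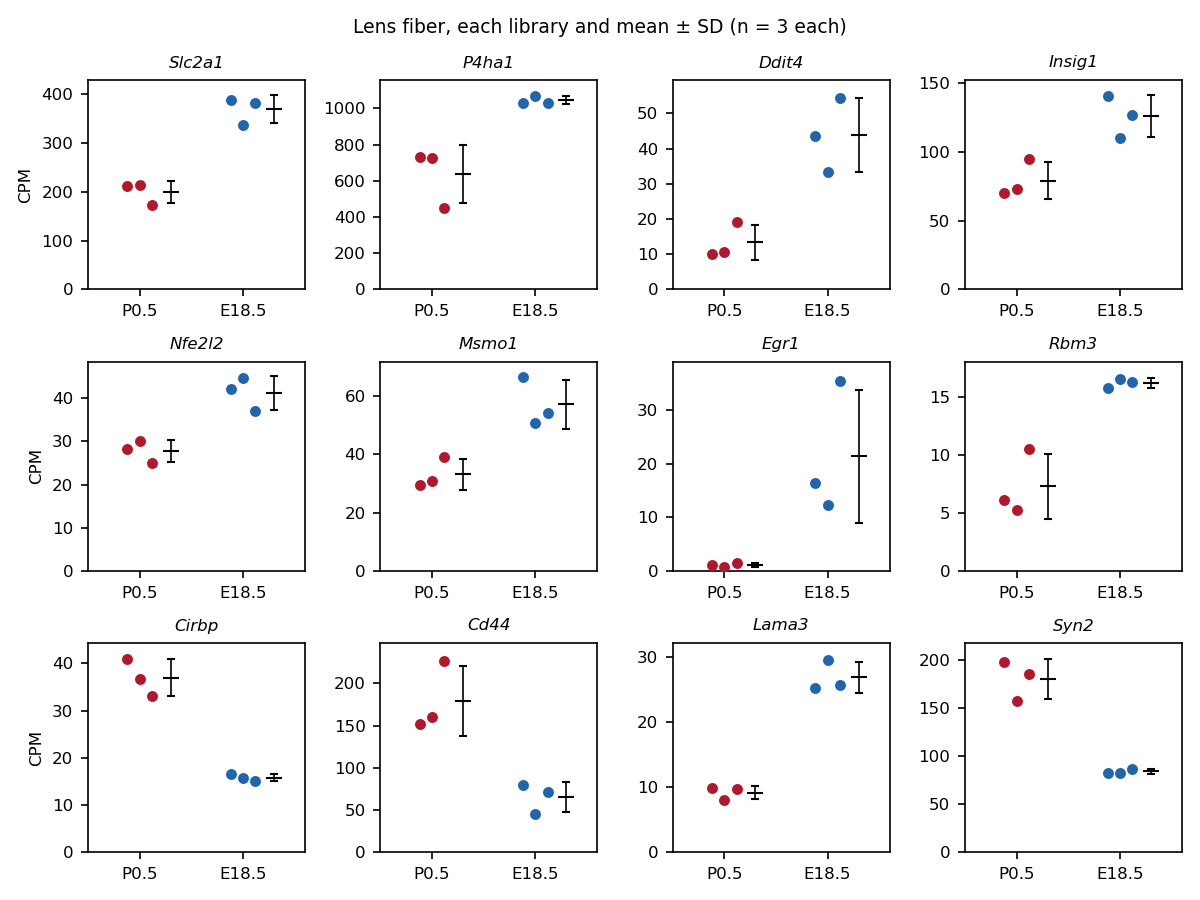
CPM in each of 3 P0.5 (red, left) and 3 E18.5 (blue, right) fiber libraries, with mean ± SD in black, for 12 genes; each axis starts at 0. The groups do not overlap in any of the 12 genes, and in P4ha1, Ddit4, Rbm3 and Cd44 the third point of P0.5, replicate 3, stands apart.

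Immediate early genes, which growth factors and stress switch on within minutes, moved in both directions. Of 21 tested members 4 fell (19%, against 3.35% of all genes) and 2 rose (9.52%, against 2.86%), and the median was -0.32, or -0.16 (2 falls and 1 rise) without E18.5 replicate 3 and -0.17 without E18.5 replicate 2. Egr1, a zinc finger factor, had 1.14, 0.718 and 1.47 CPM in P0.5 libraries, against 16.4, 12.2 and 35.5 CPM in E18.5 libraries. The P0.5 libraries were all near 1 and the E18.5 libraries spread widely above 10, a 20.4-fold lower level at P0.5 (log2 -4.35 ± 0.53, adjusted p = 2.88e-05, edgeR). Fos, a subunit of the AP-1 factor, was low throughout, with 0.3798, 0.239 and 0.315 CPM at P0.5, against 1.47, 1.46 and 2.53 CPM at E18.5 (log2 -2.60 ± 0.49, adjusted p = 0.00381). Jun, its partner, which overlaps the antisense gene Junos, had 48.1, 46.8 and 48.1 CPM at P0.5, against 60.95, 72.9 and 85.03 CPM at E18.5 (log2 -0.62 ± 0.13, adjusted p = 0.00921; log2 -0.48, adjusted p = 0.0717, without E18.5 replicate 3). Dusp1, a phosphatase that ends MAP kinase signals, had overlapping groups, 55.3, 51.4 and 68.3 CPM at P0.5 and 79.4, 67.02 and 101 CPM at E18.5 (log2 -0.51 ± 0.13, adjusted p = 0.0262). It was lost without E18.5 replicate 3 (log2 -0.34, adjusted p = 0.194), P0.5 replicate 1 (adjusted p = 0.0952) or P0.5 replicate 2 (adjusted p = 0.126).

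Ier5 and Klf4 were the members that rose. Ier5, a heat shock factor cofactor, had 25.95, 23.1 and 26.3 CPM at P0.5, against 12.2, 13.4 and 14.6 CPM at E18.5, with no overlap (log2 0.90 ± 0.13, adjusted p = 0.000404, edgeR). Klf4, a factor of epithelial barriers, was low, with 1.77, 2.07 and 1.15 CPM at P0.5, against 0.777, 0.665 and 0.461 CPM at E18.5 (log2 1.43 ± 0.33, adjusted p = 0.0123). Its log2 change was 1.20, adjusted p = 0.0835, without E18.5 replicate 3 and 1.19, adjusted p = 0.0874, without P0.5 replicate 2. Junb had 1.39, 1.68 and 1.68 CPM at P0.5 and 1.21, 1.197 and 1.69 CPM at E18.5, which overlap (log2 0.20 ± 0.28, adjusted p = 0.7597).

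FGF signalling drives fiber differentiation, and few of its feedback genes passed across birth. Of 24 tested members 2 fell (8.33%, against 3.35% of all genes) and 0 rose (against 2.86%), with a median of -0.07. In DESeq2 1 rose, and 2 rose at an unadjusted p under 0.05. Spry4, an inhibitor of the FGF to ERK path, had 3.798, 2.87 and 6.93 CPM at P0.5, against 9.32, 7.98 and 8.83 CPM at E18.5 (log2 -0.98 ± 0.22, adjusted p = 0.0105, edgeR; log2 -0.68, adjusted p = 0.0807, without P0.5 replicate 2). Etv5, an ERK target factor, had 129, 129 and 133 CPM at P0.5 and 144, 121 and 129 CPM at E18.5 (log2 -0.01 ± 0.08, adjusted p = 0.953). Spry2 had 88.4, 80.99 and 88.9 CPM at P0.5 and 96.1, 83.2 and 85.2 CPM at E18.5 (log2 -0.04 ± 0.09, adjusted p = 0.849). In the Notch list 3 of 18 members fell (16.7%, against 3.35% of all genes) and 1 rose (5.56%, against 2.86%). The median of -0.02 changed sign in 2 of 15 alternatives. Nrarp, a feedback target of Notch, had 12.5, 13.9 and 16.7 CPM at P0.5, against 24.6, 23.9 and 23.4 CPM at E18.5 (log2 -0.73 ± 0.15, adjusted p = 0.00562), the only one of the 4 to pass without any single library. Hes1 (log2 0.22 ± 0.23), Hey1 (log2 -0.02 ± 0.10) and the ligand Jag1 (log2 -0.10 ± 0.07), also of this list, did not pass (adjusted p = 0.631, 0.922 and 0.448).

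The cold-inducible pair moved in opposite directions. Cirbp had 40.9, 36.8 and 33.2 CPM in P0.5 libraries, against 16.6, 15.7 and 15.1 CPM in E18.5 libraries. The lowest P0.5 library was above 30 and the highest E18.5 library below 20, a 2.34-fold rise (log2 1.22 ± 0.15, adjusted p = 3.23e-05, edgeR). Means at the earlier stages were close together, with 15.5 CPM at E14.5, 15.5 CPM at E16.5, 15.8 CPM at E18.5 and 36.9 CPM at P0.5. Rbm3, which overlaps the antisense gene Rbm3os, had 6.08, 5.27 and 10.5 CPM at P0.5, against 15.7, 16.49 and 16.3 CPM at E18.5. It was 2.24-fold lower at P0.5 (log2 -1.16 ± 0.18, adjusted p = 0.000621), with means of 25.2 CPM at E14.5, 19.1 CPM at E16.5, 16.2 CPM at E18.5 and 7.28 CPM at P0.5. P0.5 replicate 3 had the highest Rbm3 and the lowest Cirbp of its group.

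The wider list of heat shock genes and cytosolic chaperones had 3 rises and 3 falls among 27 tested members (11.1% each). Over all genes 2.86% rose and 3.35% fell. The list's median of 0.03 changed sign in 1 of 15 alternatives. Hsf1, the heat shock factor, had 22.3, 20.6 and 21.5 CPM at P0.5, against 29.7, 26.5 and 29.03 CPM at E18.5 (log2 -0.41 ± 0.08, adjusted p = 0.00323, edgeR). Hspa8, the constitutive HSP70, had 49.1, 52.4 and 68.5 CPM at P0.5 and 72.8, 48.3 and 69.1 CPM at E18.5, which overlap (log2 -0.17 ± 0.16, adjusted p = 0.5701). In the unfolded protein response 5 of 19 members fell (26.3%, against 3.35% of all genes) and 1 rose (5.26%, against 2.86%), with a median of -0.23. Hspa5, the main chaperone of the endoplasmic reticulum, had 160.0, 158 and 133 CPM at P0.5, against 206, 185 and 198 CPM at E18.5 (log2 -0.39 ± 0.09, adjusted p = 0.0165). Its adjusted p was 0.0631, 0.0542 and 0.0671 without E18.5 replicate 1, E18.5 replicate 3 and P0.5 replicate 3. None of the 6 calls of this list passed without every library in turn, and total-count scaling left 0 falls. Falls numbered 1 without E18.5 replicate 1, E18.5 replicate 3 or P0.5 replicate 3, and 2 without P0.5 replicate 1 or 2. In epithelium across the same step 11 of the 19 fell, against 6.82% of all genes, with a median of -0.30. There 0 rose, against 6.43%, also 0 at an unadjusted p under 0.05. A difference between the fiber and epithelium changes passed for 0 of them, and had an unadjusted p under 0.05 for 4 (edgeR). Nfe2l2, which encodes the antioxidant regulator NRF2, had 28.2, 30.2 and 25.1 CPM at P0.5, against 42.04, 44.7 and 36.9 CPM at E18.5 (log2 -0.56 ± 0.07, adjusted p = 5.71e-05). It was the single call among 31 antioxidant genes and NRF2 targets (3.23%, against 3.35% of all genes that fell). It had also fallen from E16.5 to E18.5, with means of 66.3 CPM at E14.5, 51.4 CPM at E16.5, 41.2 CPM at E18.5 and 27.8 CPM at P0.5.

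Crystallins, the proteins that give the lens its refraction, had log2 changes above 0 but rarely passed. All 6 gamma crystallins A to F had a log2 change above 0, with a median of 0.44 and P0.5 libraries above E18.5 libraries in each, against 12.8% of all genes. In edgeR's test 0 of them passed, 0 passed in DESeq2, and 3 rose at an unadjusted p under 0.05. Crygb had 34899, 33645 and 36399 CPM at P0.5, against 20831, 27889.8 and 26392 CPM at E18.5 (log2 0.48 ± 0.19, adjusted p = 0.147). These genes are near-identical, so single members are uncertain. Of the 10 alpha and beta crystallins with Crygs and Crygn, all were above 0, the median was 0.27 and Cryab passed (10% of members, against 2.86% of all genes that rose). Cryab, a small heat shock protein as well as a crystallin, had 13390.3, 12280.5 and 17072 CPM at P0.5, against 8844, 11510.1 and 9933 CPM at E18.5 (log2 0.50 ± 0.14, adjusted p = 0.0412). Its adjusted p was 0.158, 0.122, 0.0725 and 0.176 without E18.5 replicate 1, E18.5 replicate 3, P0.5 replicate 1 and P0.5 replicate 3.

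The late crystallins had risen steeply before birth. Cryab means were 720.3 CPM at E14.5, 1821 CPM at E16.5, 10096 CPM at E18.5 and 14248 CPM at P0.5. Crybb2, a late beta crystallin, had 3.47 CPM at E14.5, 19.3 CPM at E16.5, 1004 CPM at E18.5 and 1978 CPM at P0.5. Between P0.5 (2157, 1175 and 2603 CPM) and E18.5 (545, 1369 and 1097 CPM) the groups of Crybb2 overlapped (log2 0.98 ± 0.30, adjusted p = 0.0535). Cryaa, the most abundant crystallin, had 228877, 219065 and 227426 CPM at P0.5, against 186068, 204680.0 and 189153 CPM at E18.5, with no overlap (log2 0.22 ± 0.13, adjusted p = 0.332).

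Fiber membrane and cytoskeleton genes gave few calls: of 32 tested members 1 rose (3.12%, against 2.86% of all genes) and 2 fell (6.25%, against 3.35%). The median of 0.01 changed sign in 3 of 15 alternatives. Mip, the water channel aquaporin 0, had 20747, 20482 and 21363 CPM at P0.5 and 19153, 20516 and 21059 CPM at E18.5, which overlap (log2 0.04 ± 0.16, adjusted p = 0.915, edgeR). The beaded filament genes stood on opposite sides: Bfsp1 had 9745, 9461 and 10480.4 CPM at P0.5, against 8839, 9222 and 8259 CPM at E18.5, and Bfsp2 had 1708, 1708 and 1519.5 CPM at P0.5, against 2699.9, 2768 and 1927 CPM at E18.5. Neither passed (log2 0.17 ± 0.14, adjusted p = 0.501, and log2 -0.58 ± 0.21, adjusted p = 0.0992). Lgsn, the late fiber protein lengsin, varied more within groups than between them, with 13.4, 33.6 and 17.1 CPM at P0.5 and 3.54, 62.4 and 46.5 CPM at E18.5.

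Nuclear and organelle clearance genes had 4 rises and 0 falls among 32 tested members (12.5%, against 2.86% of all genes), a median of 0.12, and 24 members above 0; 0 fell in DESeq2 or at an unadjusted p under 0.05. Pla2g16, a phospholipase known to degrade organelles in the mouse lens, had 1019, 953 and 1139.7 CPM at P0.5, against 867, 711 and 739 CPM at E18.5 (log2 0.42 ± 0.09, adjusted p = 0.00668, edgeR). Ulk1, the kinase that starts autophagy, had 31.3, 33.8 and 35.3 CPM at P0.5, against 25.8, 27.4 and 27.7 CPM at E18.5 (log2 0.32 ± 0.07, adjusted p = 0.0102). Both passed without any single library and neither pair of groups overlapped. Without both libraries that stand apart Pla2g16 had a log2 change of 0.29 (adjusted p = 0.0919) and Ulk1 of 0.28 (adjusted p = 0.0663), and scaling by total count left 0 of the 4 rises. Gabarapl1 and Gabarapl2, autophagosome proteins, rose by 0.26 and 0.42 on the log2 scale (adjusted p = 0.0191 and 0.0103), and were lost, Gabarapl1 without P0.5 replicate 1 or E18.5 replicate 1 or 3 (adjusted p up to 0.1096) and Gabarapl2 without P0.5 replicate 2 or E18.5 replicate 1 (adjusted p up to 0.0672). Dnase2b, the nuclease that degrades fiber DNA, had 241, 225 and 340.1 CPM at P0.5 and 269, 292 and 274 CPM at E18.5, which overlap (log2 -0.05 ± 0.14, adjusted p = 0.879). It had risen from E16.5 to E18.5, with means of 53.03 CPM at E14.5, 141 CPM at E16.5, 278 CPM at E18.5 and 269 CPM at P0.5.

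Lens transcription factors had 3 rises among 28 tested members (10.7%, against 2.86% of all genes) and 0 falls (against 3.35%), with a median of 0.05. In DESeq2 1 fell, and 4 fell at an unadjusted p under 0.05. Sox2 and Tfap2a, factors of the early lens, rose by 0.52 and 0.50 on the log2 scale (adjusted p = 0.0328 and 0.0342, edgeR), but Sox2 was lost without P0.5 replicate 1, 2 or 3 or E18.5 replicate 1 (adjusted p up to 0.166) and Tfap2a without P0.5 replicate 1 or 2 or E18.5 replicate 2 or 3 (up to 0.164). Both had higher means in epithelium, and the summed lens epithelium markers in fiber were 2652 to 2747 CPM at P0.5, against 2529 to 2606 CPM at E18.5, without overlap; 0 of its 13 tested members passed in edgeR's test, 1 fell in DESeq2 and 3 had an unadjusted p under 0.05, and the part of epithelial RNA in the 3 rises was not tested. In epithelium itself the same markers summed to 3601 to 3878 CPM at P0.5 and 3792 to 4111 CPM at E18.5. The fiber sum was thus not far below the epithelial one, and it is no measure of epithelial RNA in fiber. In bulk tissue fewer cells of a type and less RNA per cell cannot be told apart. Core factors did not pass: Pax6 had a log2 change of 0.07 ± 0.07, Prox1 0.15 ± 0.07, Maf 0.03 ± 0.08, Hsf4 0.21 ± 0.07 and Pitx3 0.00 ± 0.13 (adjusted p = 0.625, 0.226, 0.852, 0.0917 and 0.996).

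The basement membrane list, 23 tested genes of the capsule, had 2 rises (8.70%, against 2.86% of all genes), 1 fall (4.35%, against 3.35%) and a median of -0.03. Col4a4 and Col4a3 encode chains of the mature collagen IV network and are neighbours on chromosome 1, Col4a4 at chr1:82448423-82586849 (minus strand) and Col4a3 at chr1:82586921-82722059 (plus strand), pointing apart with 71 bases between them (GRCm38, GENCODE M21). Col4a4 had 49.00, 34.5 and 100.5 CPM at P0.5, against 12.5, 24.7 and 27.5 CPM at E18.5 (log2 1.504 ± 0.32, adjusted p = 0.00801, edgeR), and Col4a3 had 49.2, 37.7 and 87.3 CPM at P0.5, against 18.1, 29.7 and 26.96 CPM at E18.5 (log2 1.23 ± 0.24, adjusted p = 0.00427). P0.5 replicate 3 was the highest in both, and without it the log2 changes were 0.94, adjusted p = 0.0525, for Col4a4 and 0.80, adjusted p = 0.0212, for Col4a3. Col4a4 was low at the earlier stages, with 0.501 CPM at E14.5, 1.19 CPM at E16.5, 21.58 CPM at E18.5 and 61.3 CPM at P0.5. Lama3, a laminin chain, fell: it had 9.88, 7.98 and 9.66 CPM at P0.5, against 25.3, 29.5 and 25.7 CPM at E18.5 (log2 -1.56 ± 0.20, adjusted p = 5.71e-05), and passed without any single library. Mesenchyme markers summed to 32.2 to 34.5 CPM at P0.5, against 42.6 to 44.4 CPM at E18.5, and mural cell markers to 29.1 to 34.0 CPM, against 36.5 to 47.5 CPM; their part in these changes was not tested.

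**Figure D4:**
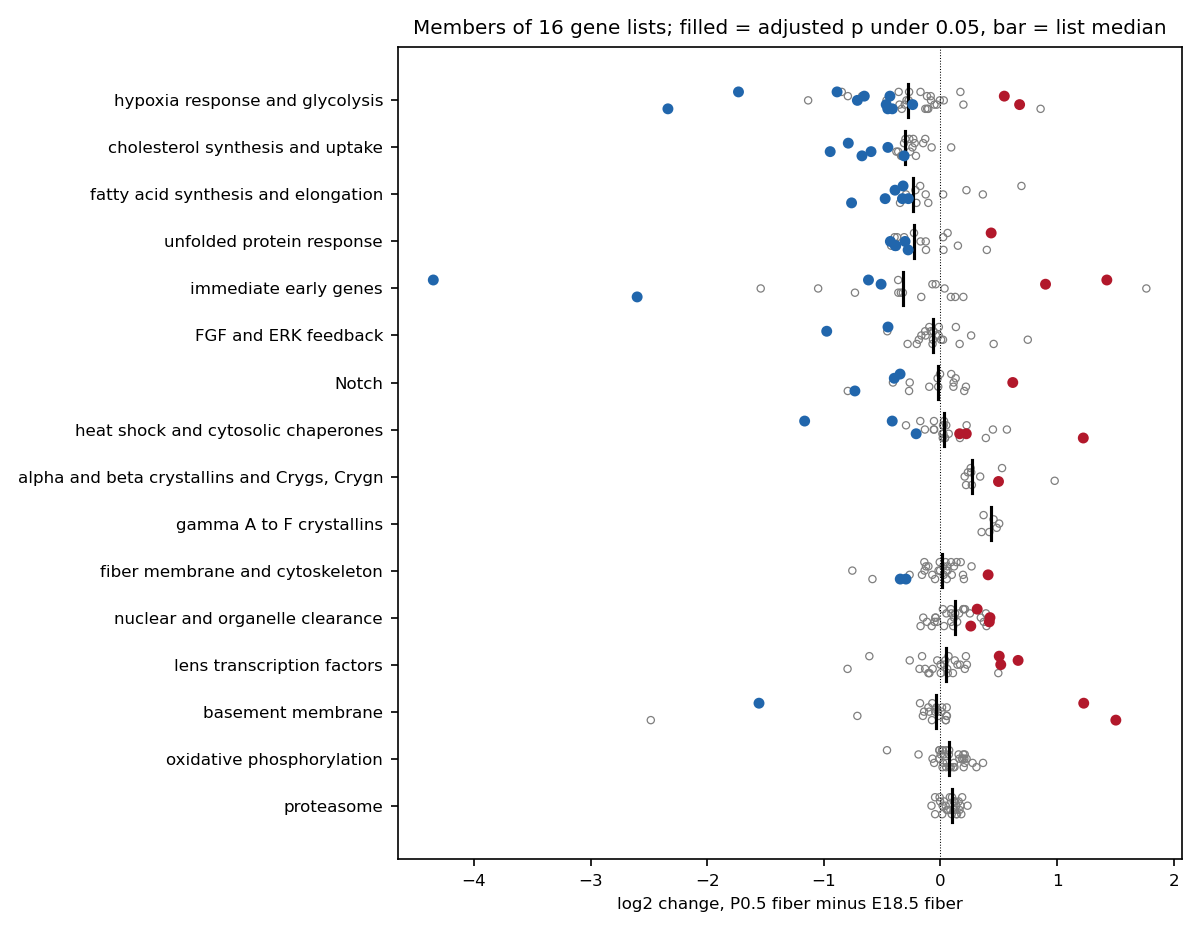
Log2 change, P0.5 fiber minus E18.5 fiber, of each tested member of 16 gene lists; filled red and blue points passed (adjusted p under 0.05) upward and downward, open points did not, and the black bar is the list median. The hypoxia, cholesterol, fatty acid and unfolded protein lists lie to the left of 0, both crystallin lists to the right, and the remaining medians lie close to 0 except that of the immediate early genes at -0.32.

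Long noncoding and growth genes gave single calls. Neat1, the RNA scaffold of nuclear paraspeckles, had 112, 103 and 142 CPM at P0.5, against 237, 213 and 217 CPM at E18.5 (log2 -0.91 ± 0.14, adjusted p = 0.000485, edgeR), after a rise of 0.62 in log2 from E16.5 to E18.5. Kcnq1ot1, which silences imprinted neighbours and overlaps Kcnq1 on the other strand, had 463, 478 and 676 CPM at P0.5, against 810.0, 749 and 900.2 CPM at E18.5 (log2 -0.60 ± 0.13, adjusted p = 0.00716). These were the 2 falls among 15 tested long noncoding RNAs (13.3%, against 3.35% of all genes). Malat1 had 87537, 88758 and 96867 CPM at P0.5 and 101474, 95077 and 97631 CPM at E18.5 (log2 -0.11 ± 0.11, adjusted p = 0.633). Of 17 imprinted growth genes 2 fell (11.8%, against 3.35% of all genes) and Gnas rose (5.88%, against 2.86%), while scaling by total count left 0 calls. Gnas was lost without P0.5 replicate 1, 2 or 3 or E18.5 replicate 1 or 3 (adjusted p up to 0.1302). Grb10, an inhibitor of insulin signalling, had 24.9, 33.6 and 23.6 CPM at P0.5, against 38.9, 40.8 and 38.9 CPM at E18.5 (log2 -0.51 ± 0.11, adjusted p = 0.00801); without both libraries that stand apart its log2 change was -0.39, adjusted p = 0.0827. Igf2r, the clearance receptor of IGF2, had 174, 169.6 and 175 CPM at P0.5, against 217, 203 and 215 CPM at E18.5 (log2 -0.29 ± 0.06, adjusted p = 0.00522). H19 and Igf2 did not pass (log2 -0.49 ± 0.20 and -0.36 ± 0.18, adjusted p = 0.145 and 0.239), although both had fallen between E16.5 and E18.5, with log2 changes of -1.24 and -1.53.

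Further lists had few calls. Among cell division genes Mcm7, a replication helicase subunit, had 13.3, 12.1 and 10.6 CPM at P0.5, against 6.56, 7.98 and 7.297 CPM at E18.5 (log2 0.73 ± 0.12, adjusted p = 0.000993, edgeR), whereas Mcm2, another subunit, had 24.8, 23.6 and 24.9 CPM at P0.5, against 30.7, 35.8 and 37.1 CPM at E18.5 (log2 -0.50 ± 0.11, adjusted p = 0.0102; log2 -0.44, adjusted p = 0.0633, without E18.5 replicate 3). They were the 2 calls among 30 members (3.33% each way, against 2.86% of all genes that rose and 3.35% that fell). Atf5, a stress factor, had 109, 109 and 96.7 CPM at P0.5, against 71.3, 71.5 and 80.7 CPM at E18.5 (log2 0.49 ± 0.11, adjusted p = 0.00979). Smad3, a TGF-beta signal carrier, was the single call among 26 genes of the BMP and TGF-beta paths, with 30.8, 29.8 and 37.9 CPM at P0.5, against 42.7, 44.3 and 41.2 CPM at E18.5 (log2 -0.38 ± 0.08, adjusted p = 0.00522). That 1 fall is 3.85% of its list, against 3.35% of all genes. Of 27 Wnt genes 2 fell (7.41%, against 3.35%) and 1 rose (3.7%, against 2.86%). The receptors Ror1 and Fzd3 fell by 0.40 and 0.24 on the log2 scale (adjusted p = 0.00736 and 0.0105), and Fzd6, another receptor, rose by 0.36 (adjusted p = 0.0334) and was lost without P0.5 replicate 1 or 2 or E18.5 replicate 1, 2 or 3 (adjusted p up to 0.199). Igf2bp3, a fetal RNA-binding protein, fell by 0.23 (adjusted p = 0.00668). Glucocorticoid targets other than Ddit4 included Fkbp5 and Tsc22d3, which did not pass (log2 -0.24 ± 0.11 and -0.31 ± 0.10, adjusted p = 0.193 and 0.0785).

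In edgeR's test 0 members passed among 36 oxidative phosphorylation genes, 29 proteasome genes, 28 lysosome genes, 22 translation factors, 25 chromatin remodelers and 16 p53 targets. At an unadjusted p under 0.05 these lists had 9, 6, 3, 1, 3 and 6 members, in the same order, and DESeq2 called 1 oxidative phosphorylation gene and 1 translation factor, both higher at P0.5, and 0 of the others. Their medians lay between -0.03 for lysosome genes and 0.10 for proteasome genes. Among cytoplasmic ribosomal proteins Rps2 was the single call of 33 (3.03%), and the median was 0.13. Over all genes 2.86% rose and 3.35% fell.

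The remaining lists gave between 1 and 5 calls each, and of these calls Gadd45g, Atf5, Ddit4 and Igf2bp3 alone passed without each of the 6 fiber libraries in turn. Among 21 genes of cell cycle exit Gadd45g (log2 0.95), Gadd45b (0.40) and Rb1 (0.25) rose and Rbl1 (-0.69) fell; Rb1 and Rbl1 encode pocket proteins that restrain the cell cycle. Atf5 (0.49) rose and Psat1 (-0.42), an enzyme of serine synthesis, fell among 29 genes of the integrated stress response and amino acid supply. In the glucocorticoid list of 15 genes Nfkbia (0.64) rose and Ddit4 (-1.73), given with the hypoxia genes, fell. Igf2bp1 (-0.39) and Igf2bp3 (-0.23), RNA-binding proteins of fetal tissues, fell and Plagl2 (0.21) rose among 14 fetal program genes. Caprin2 (0.51) rose and the splicing genes Srsf7 (-0.25) and Luc7l3 (-0.33) fell among 34 RNA-binding proteins. Of 29 ion channels, pumps and transporters Slc24a2 (0.72), Clcn2 (0.51), Slc6a6 (0.33) and Slc30a1 (0.33) rose and Slc39a10 (-0.25) fell. Over all genes 2.86% rose and 3.35% fell. The shares that rose and fell were 14.3% and 4.76% in cell cycle exit and 3.45% each in the integrated stress response. They were 6.67% each in the glucocorticoid list and 7.14% and 14.3% in the fetal program. RNA-binding proteins had 2.94% and 5.88%, and ion channels, pumps and transporters 13.8% and 3.45%.

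Several of these calls rested on single libraries. Gadd45b had a log2 change of 0.27, adjusted p = 0.0918, without P0.5 replicate 3 and was also lost without E18.5 replicate 1 or 3. Gadd45g had 0.50, adjusted p = 0.114, without both libraries that stand apart. Clcn2 had 0.44, adjusted p = 0.125, without E18.5 replicate 2 and 0.47, adjusted p = 0.102, without P0.5 replicate 3. Without E18.5 replicate 1 the log2 change was -0.22, adjusted p = 0.217, for Igf2bp1 and -0.27, adjusted p = 0.189, for Psat1. Rb1 was lost without P0.5 replicate 1 or 3 or E18.5 replicate 2 or 3 (adjusted p up to 0.1400), Plagl2 without P0.5 replicate 1 or 3 or E18.5 replicate 1, 2 or 3 (up to 0.147) and Srsf7 without P0.5 replicate 1 or 3 or E18.5 replicate 1, 2 or 3 (up to 0.09200). The highest adjusted p over the 6 fits was 0.0522 for Rbl1, 0.0805 for Nfkbia, 0.1700 for Caprin2, 0.0874 for Luc7l3, 0.158 for Slc24a2, 0.132 for Slc6a6, 0.101 for Slc30a1 and 0.211 for Slc39a10. Scaling by total count left 0 calls in the fetal program, ion channel, Wnt, BMP and TGF-beta, and fiber membrane lists.

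Nr1d2 (0.66), a repressor of the circadian clock, was the single call of 22 clock genes (4.55%, against 2.86% of all genes that rose). It was lost without E18.5 replicate 1 or 3 (adjusted p = 0.0763 and 0.0911, edgeR). Single falls came from Igf1r (-0.27), the IGF receptor, among 24 insulin and IGF genes (4.17%, against 3.35% of all genes) and Capn3 (-0.43) among 8 calpains (12.5%). Others were Oxct1 (-0.42), an enzyme of ketone use, among 20 genes of fatty acid oxidation (5%), and Tapbp (-0.31) among 13 interferon and MHC class I genes (7.69%). The last 2 were lost without any one of the 6 libraries and were not called by DESeq2. Igf1r was lost without P0.5 replicate 1 or 2 (adjusted p = 0.0678 and 0.0529), and Capn3 without E18.5 replicate 1 or P0.5 replicate 3 (adjusted p = 0.0702 and 0.072). In the lists with 0 rises, 3 insulin and IGF genes, 1 calpain, 3 fatty acid oxidation genes and 1 interferon gene were higher at an unadjusted p under 0.05, and DESeq2 called 0 of them; 1 clock gene was lower at that level, with 0 called by DESeq2.

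Epithelium from the same stages gave more calls, with 799 genes that rose (6.43%) and 848 that fell (6.82%) in P0.5 against E18.5 epithelium. Of the fiber calls 117 of 355 rises (33.0%) were also rises in epithelium, which is 14.6% of the epithelial rises, and 149 of 416 falls (35.8%) were also falls there, 17.6% of the epithelial falls. Calls in opposite directions numbered 3 and 2. The 2 comparisons share no library. A test of the difference between them, the interaction, was passed by 44 genes whose change was higher in fiber (0.354%) and 36 whose change was lower (0.29%). These counts moved with single libraries, to 68 and 92 without P0.5 fiber replicate 3, 10 and 11 without E18.5 fiber replicate 3, and 13 and 9 without E18.5 epithelium replicate 2.

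In epithelium 25 of the 38 members of the hypoxia response and glycolysis list fell (against 6.82% of all genes) and 1 rose (against 6.43%). The list's median there was -0.58, whereas in fiber 10 members fell and the median was -0.28. The interaction was passed by 3 of the 38 members, Bnip3, Egln1 and Pfkm, each with a higher change in fiber, against 0.354% of all genes. Of the 12 fits without 1 library, Bnip3 passed in 12, Pfkm in 10 and Egln1 in 5. Egln1 and Pfkm were also lost with scaling by total count. Bnip3 in fiber had 73.6, 64.9 and 53.3 CPM at P0.5 and 61.99, 82.2 and 64.4 CPM at E18.5, which overlap. In epithelium it had 10.1, 9.097 and 7.67 CPM at P0.5, against 20.3, 23.96 and 19.1 CPM at E18.5 (log2 -1.24 ± 0.15, adjusted p = 2.06e-05), and the interaction was 1.12 ± 0.19 (SE, adjusted p = 0.007501, edgeR). For Slc2a1, lower at P0.5 in both tissues (log2 -0.89 ± 0.09 in fiber and -0.48 ± 0.09 in epithelium), the interaction did not pass (-0.41 ± 0.12, adjusted p = 0.129). The cold-inducible genes kept their opposite directions in epithelium, with log2 1.48 ± 0.13 for Cirbp and -0.64 ± 0.14 for Rbm3 (adjusted p = 1.02e-06 and 0.00367). Of the cholesterol genes 0 of 22 passed in epithelium, against 6.43% of all genes that rose and 6.82% that fell. The median there was -0.10 and 4 fell at an unadjusted p under 0.05. The interaction was passed by 0 of them in edgeR's test and had an unadjusted p under 0.05 for 3, so a difference between the tissues was not shown.

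Acer2 and Zfp365 carried the interactions that held under every alternative. Acer2, which encodes a Golgi ceramidase, had 76.98, 73.5 and 98.6 CPM at P0.5 and 60.95, 78.1 and 64.4 CPM at E18.5 in fiber, which overlap. In epithelium it had 15.1, 13.5 and 15.3 CPM at P0.5, against 37.3, 42.1 and 29.6 CPM at E18.5, well apart (interaction 1.61 ± 0.21, adjusted p = 0.00108, edgeR). Zfp365, which fell in fiber, did not pass in epithelium, with 31.3, 31.01 and 29.2 CPM at P0.5 and 32.1, 29.99 and 30.7 CPM at E18.5 (interaction -1.04 ± 0.19, adjusted p = 0.0164). Pcdh17, a protocadherin, rose in fiber and had 6.38, 5.702 and 4.14 CPM at P0.5 and 6.19, 8.58 and 6.98 CPM at E18.5 in epithelium (interaction 1.37 ± 0.28, adjusted p = 0.0252); in fiber it had 108, 104 and 72.7 CPM at P0.5, against 46.2, 55.1 and 47.2 CPM at E18.5. Its interaction was lost without E18.5 epithelium replicate 2, E18.5 fiber replicate 3, P0.5 epithelium replicate 3 or P0.5 fiber replicate 1, at an adjusted p of up to 0.0798. Sec14l5 and Btbd17 rose in epithelium and did not pass in fiber, with interactions of -1.43 ± 0.26 and -0.98 ± 0.18 (adjusted p = 0.0183 and 0.0186). Both were lost without E18.5 epithelium replicate 2 (-1.27, adjusted p = 0.0651, and -0.86, adjusted p = 0.0615).

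**Figure D5:**
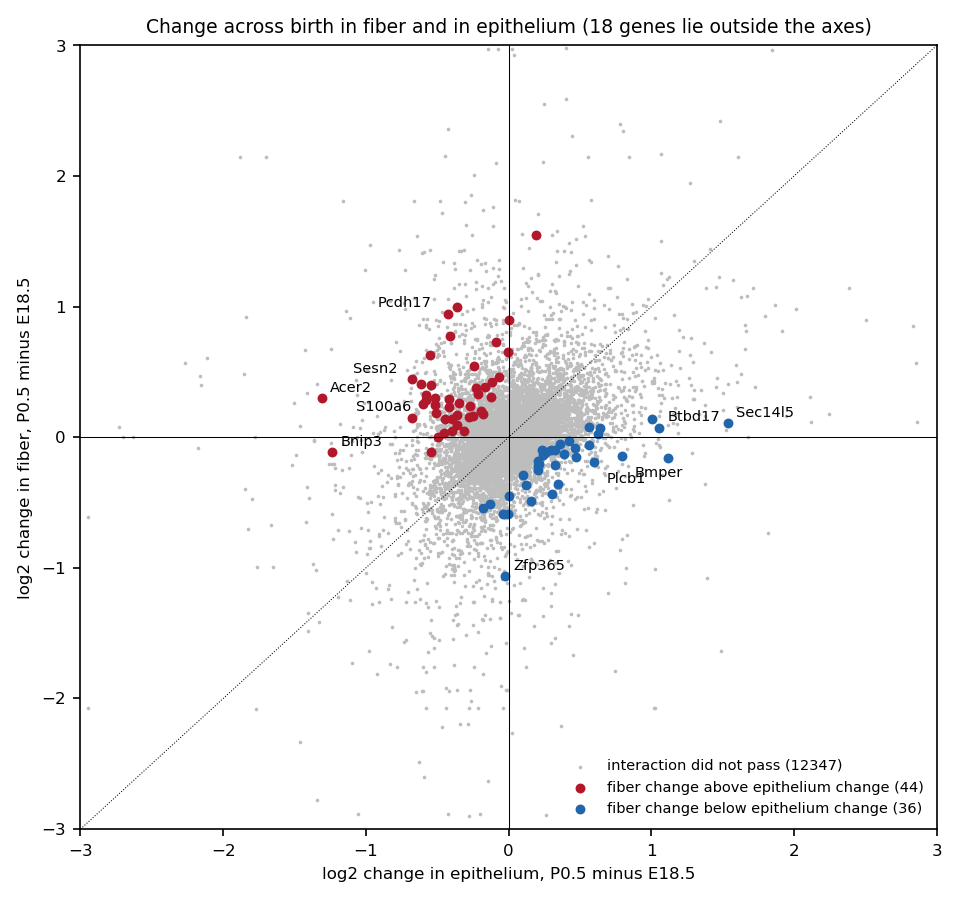
Log2 change across birth (P0.5 minus E18.5) of each tested gene in fiber (vertical axis) against epithelium (horizontal axis); red and blue points passed the interaction test with a higher (44) or lower (36) change in fiber, and 18 genes lie outside the axes. Acer2 and Bnip3 lie at the left, with epithelium changes below -1 and fiber changes of 0.30 and -0.12, and Zfp365 lies at the bottom, with an epithelium change near 0.

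Markers of 6 other cell types had lower sums in fiber than in epithelium at both stages, but those of pigment cells at P0.5 and of cornea at both stages were not wholly lower in fiber. Pigment cell markers summed to 93.2 to 113 CPM in P0.5 fiber, against 87.8 to 96.1 CPM in E18.5 fiber, where they overlap, and to 91.1 to 193.0 CPM in P0.5 epithelium. Cornea markers summed to 22.7 to 33.1 CPM in P0.5 fiber, against 21.8 to 24.1 CPM in E18.5 fiber, and to 17.2 to 22.0 CPM in P0.5 epithelium. In fiber, endothelial markers summed to 27.6 to 27.8 CPM at P0.5, against 21.8 to 44.0 CPM at E18.5, macrophage markers to 2.73 to 2.91 CPM, against 1.38 to 3.07 CPM, and retina markers to 7.09 to 9.66 CPM, against 5.61 to 7.71 CPM. Red cell markers summed to 0.21 to 1.04 CPM at P0.5, against 1.06 to 1.77 CPM at E18.5, with 2 of 3 at 0 at P0.5 and 1 of 3 at E18.5. Of these lists 1 of 7 mural cell markers, Notch3, and 1 of 8 mesenchyme markers, Col5a1, fell, and 0 of 10 endothelial, 8 macrophage, 6 retina, 7 pigment cell, 3 red cell and 3 cornea markers passed in edgeR's test or in DESeq2; 2 endothelial markers fell at an unadjusted p under 0.05 and 0 of the others did. The same endothelial markers summed to 301.0 to 367.0 CPM in P0.5 epithelium. Notch3 was lost without E18.5 replicate 1 or 3 or P0.5 replicate 1 or 2 (adjusted p up to 0.152, edgeR). Col5a1 was lost without any one of the 6 fiber libraries (adjusted p up to 0.128). The falls of Notch3 and Col5a1 are 14.3% and 12.5% of their lists, against 3.35% of all genes. Scaling by total count lost both calls.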

How the data were processed

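The authors deposited a table of raw read counts per gene for 24 libraries, named by symbol, and the 3 P0.5 fiber and 3 E18.5 fiber columns were the ones compared. The submitters' processing notes name the mm10 build, HTSeq 0.6.1, Cufflinks 2.2.1, TopHat2 2.0.13, Trim Galore 0.4.1 and Cuffdiff, without saying how each was used; how the 12611 genes were selected and the strand setting of counting are not stated there. A gene set selected beforehand would change the TMM factors and the adjusted p-values.

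All 24 libraries were fitted with edgeR 4.0.16 (R 4.3.3, limma 3.58.1) by quasi-likelihood with 8 group means, TMM scaling and filterByExpr (minimum count 10, minimum total 15), which kept 12427 genes. Tests were two-sided, with Benjamini-Hochberg adjustment over all of them and a threshold of 0.05. The interaction contrast was the fiber change minus the epithelium change. Standard errors of log2 changes were the size of the change over the root of the F statistic. The fit was tested on simulated data. With 3 against 3 libraries an exact permutation test cannot give p under 0.1, so none was used.

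The genes named are the 15 largest rises and falls among those called with at least 20 CPM in the higher group, the 5 largest interactions each way, and members of 47 gene lists, of which 8 mark other cells; predicted genes, histones and small noncoding RNAs were left out of the first 2 groups, and some genes that these rules name are not reported here. The comparison and the lists were chosen with earlier results of these data known. Gene positions are from GENCODE M21 (GRCm38), in which 12340 symbols (97.9%) matched 1 gene, and promoter windows from RefSeq (GRCm38.p6). Alternatives were DESeq2 1.42.0, other scaling, filters and libraries, and a replicate block. Replicates differed by more than sampling noise, with a chi-square per degree of freedom of 4.01 to 11.8 between P0.5 libraries and 15.1 to 333.9 between E18.5 libraries. Pairs with E18.5 replicate 2 had 250 and 333.9, and the other E18.5 pair 15.1. Rn45s, highest in that library, was in the sum, and its part was not tested. The SD in log2 per gene was 0.163 to 0.227 at E18.5 and 0.192 to 0.266 at P0.5.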

Additional observations from a re-analysis of the deposited data

Results flagged for a closer look

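The change across birth differed between fiber and epithelium, by edgeR's interaction test at an adjusted p under 0.05, for 18 of the genes named by rule or in a list. Values are the log2 change in fiber minus that in epithelium. The difference was above 0 for Acer2 (1.61), Pcdh17 (1.37), Sesn2 (1.12), Bnip3 (1.12), S100a6 (0.90), Ier5 (0.89), Mthfd2 (0.86), Mitf (0.82), Mcm7 (0.82), Pfkm (0.79) and Egln1 (0.43). It was below 0 for Sec14l5 (-1.43), Zfp365 (-1.04), Btbd17 (-0.98), Bmper (-0.94), Plcb1 (-0.79), Id2 (-0.60) and Wnt5b (-0.54). Of these 18 genes 5 passed without every single library of the 12 in turn: Acer2, Bmper, Bnip3, Mcm7 and Zfp365. Acer2 and Zfp365 also passed under all other alternatives run. Groups of 3 libraries are too small for a test of single outlying values.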

How the results depend on the processing

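Under the alternatives run, no direction reversed among the 115 fiber changes and 18 interactions that had passed and were followed. The direction of genes named without a call was not followed. Scaling by total count alone gave 109 rises and 63 falls across birth in fiber and 4 higher and 1 lower interactions. Fitting the 6 fiber libraries alone gave 127 rises and 137 falls (14 and 17 at 2-fold), and the 12 libraries of both stages alone 7 higher and 8 lower interactions; fewer samples entered these fits. The filter at 5 CPM gave 13 rises and 15 falls at 2-fold and 63 lower interactions, with fewer genes tested. DESeq2 gave 95 higher and 82 lower interactions; the cause was not tested. Without both libraries that stand apart, an alternative chosen after seeing the data, 225 genes rose. When each library was left out in turn, rises ranged from 143 to 353, falls from 206 to 424, 2-fold rises from 25 to 45, 2-fold falls from 20 to 43, higher interactions from 10 to 68 and lower interactions from 9 to 92. Of 115 named fiber changes 47 passed without each library in turn and 29 under every alternative.

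Whether replicate numbers pair the libraries was not settled. Deviations of same-numbered P0.5 and E18.5 fiber libraries correlated weakly, at 0.0848, 0.0653 and -0.00121. Of these 3, 2 correlated best with their own number, and 3 values are too few to decide. With a replicate block 277 genes rose and 325 fell, with 13 higher and 12 lower interactions; with the replicate block in the 6 fiber libraries 90 rose and 97 fell, 13 and 18 of them at 2-fold.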

Other observations

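Some transcripts outside the naming rule or without a call varied between libraries of 1 group. Rn45s fell (log2 -1.93, adjusted p = 0.021, edgeR), with 70573, 79601 and 87529 CPM in P0.5 fiber, against 147885, 654432 and 106268 CPM in E18.5 fiber. Mir6236 fell (log2 -5.25, adjusted p = 0.025), with 2.91, 16.6 and 28.4 CPM in P0.5 fiber, against 101, 1719 and 79.6 CPM in E18.5 fiber, and like Rn45s it was highest in E18.5 replicate 2. Grifin, a lens galectin-like protein gene, had 360.1, 356 and 1292 CPM in P0.5 fiber and 634, 724 and 673 CPM in E18.5 fiber, with P0.5 replicate 3 far above the rest and no call.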
